A study of Mus musculus with 3 samples.

Results

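The 39 genes described here are cell cycle and DNA replication genes, chosen by name, and each of them was found once among the 27998 genes of the count matrices. Of these, 23 act mainly in the chromosome movements and controls of cell division and are called mitosis members, and 16 act mainly in copying the DNA and are called replication members. Their mRNA was counted in single-cell RNA-seq (scRNA-Seq) libraries of unsorted cells from the bone marrow, the blood and the tendon injury site, with 1 library per tissue. According to the labels and the study's methods, the cells came from male C57BL/6J mice aged 10 weeks that had received a burn to the back together with complete cutting of the Achilles tendon (burn/tenotomy) 3 days earlier, so that no uninjured animal is among the groups. Bone marrow was flushed from the bone and red cells were lysed, mononucleated blood cells were taken from a Ficoll gradient before red cell lysis, and the tendon site was digested with enzymes. How many mice were pooled for a library is not stated in the labels or methods. With 1 library per tissue, site, cell preparation and library cannot be told apart, no test across animals was possible, and the intervals given are exact 95% intervals that cover counting error only.

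A dividing cell first copies its DNA in S phase and then separates the copies in mitosis. For replication, ORC, Cdc6 and Cdt1 load the MCM helicase onto origins, Pcna clamps the polymerase to DNA, and Rrm2, Tyms and Tk1 supply deoxynucleotides. For mitosis, Cdk1 with cyclins A and B starts the process, Plk1 and the Aurora kinases build the spindle, Bub1 and Bub1b hold division back until every chromosome is attached, and Cdc20 with Ube2c then marks cyclin B for destruction. Neutrophils are made in the marrow from precursors that first fill azurophil granules and then specific granules, and they are known to leave the cell cycle before they reach the blood.

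Promoter sequences were looked at because mitosis genes are known for the CHR element together with CCAAT boxes and replication genes for E2F sites. RefSeq promoters (build GRCm38.p6, 250 bases before to 50 bases after the start) were matched for 34 of the 39 members, with 38 promoters in all, since 4 members have more than 1 start. The letters searched on both strands were TTTGAA or TTCGAA for the CHR, CCAAT for the CCAAT box, and TTTGGCGC, TTTCCCGC, TTTCGCGC or TTTGCCGC for E2F. Matches can overlap, as the E2F matches at positions -110 and -106 of Mcm6 do. A CHR match was found in 15 of 19 mitosis members (78.9%), in 2 of 15 replication members (13.3%) and in 21.7% of 27025 genes with a promoter. An E2F match was found in 1 mitosis member, Cdk1, in 7 replication members (46.7%) and in 2.61% of all genes. CCAAT was found in 17 mitosis and 11 replication members and in 41.1% of all genes. A match is a description of the letters in the window and no measurement of binding. The 120 bases before the start are printed for 5 mitosis members, including Kif23 and Ube2c, whose mRNA departed most from the others of their group, and for 3 replication members, with every CHR, CCAAT and E2F match in capitals. They lie on the strand of the gene at chr11:99024190-99024309 (Top2a, minus strand), chr10:69352913-69353032 (Cdk1, minus), chr19:37376262-37376381 (Kif11, plus), chr2:164769809-164769928 (Ube2c, plus), chr9:61946800-61946919 (Kif23, minus), chr1:128359706-128359825 (Mcm6, minus), chr1:20820313-20820432 (Mcm3, minus) and chr2:132253181-132253300 (Pcna, minus).
Top2a: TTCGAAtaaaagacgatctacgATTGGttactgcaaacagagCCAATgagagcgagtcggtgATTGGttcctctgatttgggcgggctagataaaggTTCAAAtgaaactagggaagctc
Cdk1: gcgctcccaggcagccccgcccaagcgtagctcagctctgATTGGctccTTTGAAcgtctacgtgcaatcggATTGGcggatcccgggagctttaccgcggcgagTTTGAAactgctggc
Kif11: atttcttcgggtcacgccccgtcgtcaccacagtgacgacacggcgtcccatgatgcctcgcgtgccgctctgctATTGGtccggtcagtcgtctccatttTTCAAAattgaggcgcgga
Ube2c: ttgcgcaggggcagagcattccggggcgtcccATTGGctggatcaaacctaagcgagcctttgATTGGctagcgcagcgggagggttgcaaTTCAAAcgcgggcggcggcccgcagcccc
Kif23: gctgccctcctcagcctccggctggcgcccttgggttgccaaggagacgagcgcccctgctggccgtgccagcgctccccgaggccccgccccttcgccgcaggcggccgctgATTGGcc
Mcm6: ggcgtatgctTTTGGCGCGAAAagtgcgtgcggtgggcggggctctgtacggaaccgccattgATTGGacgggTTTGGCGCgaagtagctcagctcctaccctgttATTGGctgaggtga
Mcm3: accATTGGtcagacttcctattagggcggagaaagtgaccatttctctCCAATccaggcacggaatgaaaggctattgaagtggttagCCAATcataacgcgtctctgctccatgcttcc
Pcna: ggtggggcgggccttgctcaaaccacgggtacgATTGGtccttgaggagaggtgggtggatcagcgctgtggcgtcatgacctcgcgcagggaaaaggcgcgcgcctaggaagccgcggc
In Kif23 the stretch before the start holds a CCAAT match alone, and the CHR match of that gene lies at position 2 after the start. In Mcm3 both E2F matches lie after the start, at positions 19 and 38.

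After filters 1813 marrow, 2146 blood and 4780 tendon cells were kept, with medians of 22893, 8361.5 and 12178 UMIs per cell (a UMI, unique molecular identifier, stands for 1 captured mRNA molecule). Levels are given as CPM, the UMIs of a gene or list per 1000000 UMIs of all cells of a class summed. Cells were clustered within each library without the 39 members, the other listed cell cycle genes and clustered histone genes. Cell cycle genes outside these lists, such as Plk4, were not left out. A cluster was called by a cell type, with "-like", only where at least 3 markers of that type were among its 200 leading genes. Barcodes shared between libraries numbered 2, 1 and 6 for marrow and blood, marrow and tendon, and blood and tendon. Cells removed as probable doublets held 4663, 123 and 6029 member UMIs in marrow, blood and tendon.

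The members were most abundant in the marrow, where they summed to 3763 CPM, against 1499 CPM in the tendon and 341 CPM in the blood. Within the marrow the range was wide. An unnamed cluster of 56 cells led by the B-cell precursor genes Vpreb1, Vpreb3 and Igll1 stood at 7199 CPM (6959 to 7444), monocyte/macrophage-like cells at 5525 CPM (5478 to 5573), azurophil precursor-like cells at 4622 CPM and specific granule precursor-like cells at 3264 CPM. In the unnamed cluster 3 cells held 39.6% of the member UMIs and 17.9% of cells had none, and Top2a was found in 12 of the 56. Mature neutrophil-like cells of the same library stood at 41.0 CPM (34.6 to 48.1), the lowest level of the 27 classes of at least 50 cells. Both kinds of neutrophil precursor together held 64.2% of the member UMIs of the marrow and the mature neutrophil-like cells 0.0806%. They made up 55.7% and 15.8% of the cells and held 66.5% and 7.41% of all UMIs of the marrow. The precursors' share of member UMIs was thus close to their share of all UMIs. In the tendon the highest levels among classes of at least 50 cells belonged to cells that are not leukocytes. Keratinocyte-like cells stood at 2626 CPM, endothelial-like cells at 2146 CPM, mesenchymal-like cells (fibroblasts and related stroma) at 2140 CPM, tenocyte-like cells at 1810 CPM and mural-like cells of the vessel wall at 1767 CPM, and a smaller class of 18 muscle-like cells stood at 3069 CPM. The 5% of cells with most member UMIs held 21.1% of them in keratinocyte-like, 44.7% in endothelial-like and 31.5% in mesenchymal-like cells. They held 42.6% in tenocyte-like and 40.1% in mural-like cells, and 1 muscle-like cell held 31.9%. Mesenchymal-like cells were 12.0% of tendon cells and held 26.1% of all its UMIs and 37.3% of its member UMIs. Monocyte/macrophage-like cells were 28.1% of the cells, held 21.7% of all UMIs and 14.3% of member UMIs, and stood at 986 CPM. Unnamed tendon clusters 0, 4 and 8, with 717, 310 and 223 cells, are not counted there. They also held more monocyte/macrophage markers than markers of any other type, and stood at 220, 461 and 557 CPM. Among blood classes of at least 50 cells the levels ran from 202 CPM in T-like cells to 1113 CPM (1046 to 1184) in an unnamed cluster of 82 cells that carried both T and NK markers, of which 4 held 68.9% of the member UMIs.

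**Figure D1:**
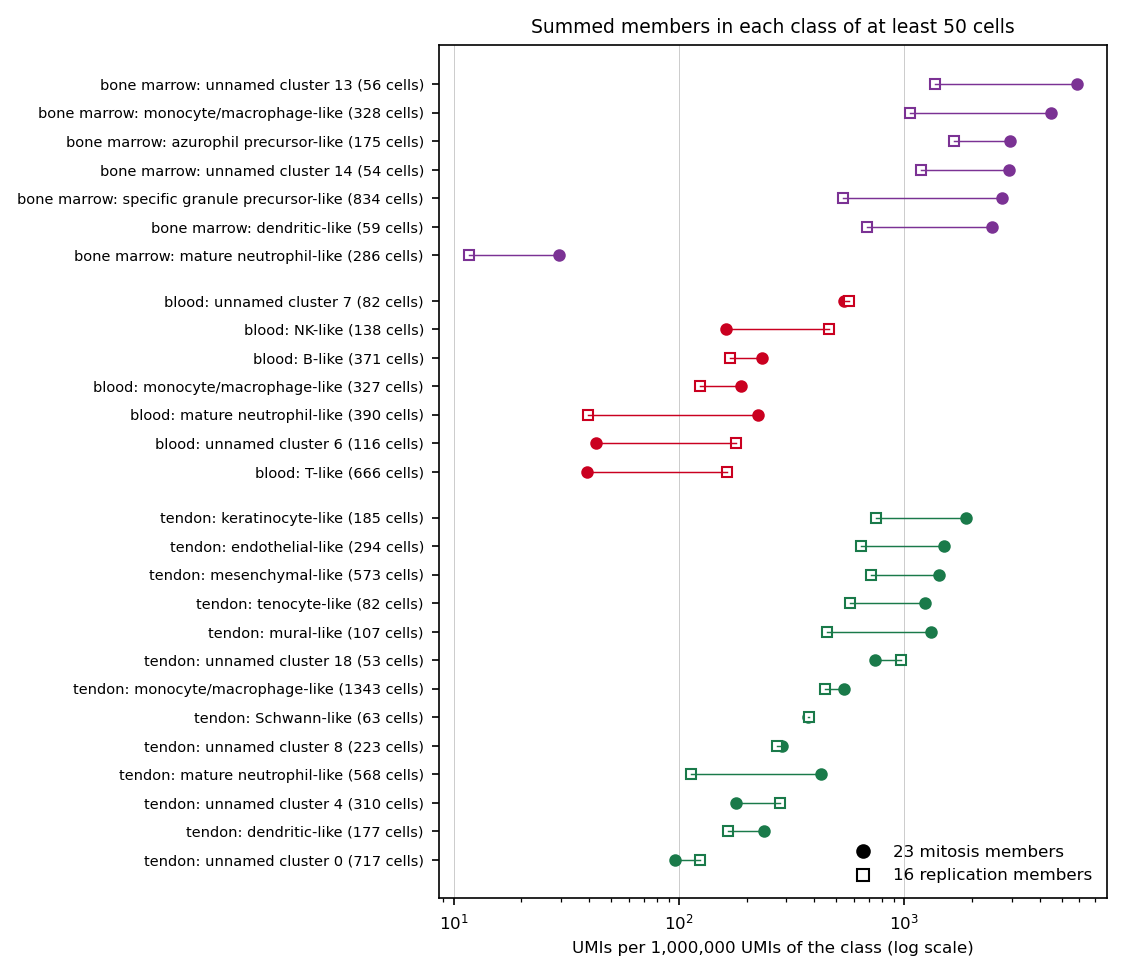
Summed CPM (log axis) of the 23 mitosis members (filled circles) and the 16 replication members (open squares) in each class of at least 50 cells, by library. In mitosis members, marrow classes other than mature neutrophil-like cells lie above all other classes. In the blood the replication members lie above the mitosis members in NK-like and T-like cells and in unnamed cluster 6, and slightly above them in unnamed cluster 7.

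The share of cells that carried these mRNAs was compared after every cell had been thinned to 1000 UMIs. At least 2 UMIs of mitosis members were then found in 31.8% of marrow cells (29.7 to 34.0), in 8.53% of tendon cells (7.74 to 9.36) and in 1.17% of blood cells (0.759 to 1.72). Before thinning the shares were 55.1%, 30.2% and 13.1%, and 48.0% in blood monocyte/macrophage-like cells. Of the 25 blood cells that passed after thinning, 8 were monocyte/macrophage-like and 6 mature neutrophil-like. In these classes single genes led the member UMIs, Ube2c with 18.7% in the former and Kif23 with 21.5% in the latter. How far these genes set the blood share was not tested, so it is no share of cells with the whole group. In mature neutrophil-like cells of the marrow, which should lack these mRNAs, the thinned share was 0 of 282 cells, which allows up to 1.06% by the limit of 3 counts (exact interval up to 1.30%), at a median depth of 12442.5 UMIs, and 6.99% of the unthinned cells passed. The thinned shares were 70.3% in azurophil precursor-like cells of the marrow, at a median of 47218 UMIs, 43.6% in monocyte/macrophage-like and 32.8% in specific granule precursor-like cells. In the tendon they were 38.0% in keratinocyte-like, 22.4% in mesenchymal-like, 17.2% in endothelial-like and 5.39% in monocyte/macrophage-like cells. In the unnamed tendon clusters 0, 4 and 8 they were 0.845%, 1.61% and 3.20%. Thinning left out 8 marrow, 12 blood and 90 tendon cells with fewer UMIs. Of the marrow cells, 20.9% passed for mitosis members alone, 4.71% for replication members alone and 10.9% for both. In the tendon monocyte/macrophage-like cells 3.16% passed for mitosis members alone, 5.004% for replication members alone and 2.23% for both.

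Across the 27 classes the members moved largely together. Pearson's r of each member with the sum of the other 38, on log2(CPM + 1), ran from 0.57 for Kif23 to 0.97 for Top2a, the topoisomerase that untangles DNA copies. These r values describe 27 classes that share 3 libraries and differ in depth. The median r over pairs of members was 0.92 within the mitosis group, 0.80 within the replication group and 0.75 between the groups. After Kif23 the lowest r belonged to Cdt1 (0.59), Pcna (0.71) and Ube2c (0.72). Of the 39 members, 19 were highest in the marrow cluster with B-cell precursor genes and 12 in azurophil precursor-like cells, while 6 were highest in marrow monocyte/macrophage-like cells. Some peaks in the first, a cluster of 56 cells, lay close to the next class. Bub1 had 54.8 CPM there and 52.9 CPM in marrow monocyte/macrophage-like cells. The remaining members were enzymes of thymidylate supply. Tyms was highest in tendon endothelial-like cells at 145 CPM, with 126 CPM in azurophil precursor-like cells. Tk1 was highest in tendon keratinocyte-like cells at 84.5 CPM, close to 81.3 CPM in azurophil precursor-like cells. Among 10635 genes outside the cell cycle lists, the 10 whose pattern was most like that of the summed members were Shcbp1 (r = 0.98), 2810417H13Rik (0.96), Rad51ap1, Cenpw, Plk4, Apitd1, Spag5, Casc5, Brip1 and Gtse1 (0.93).

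**Figure D2:**
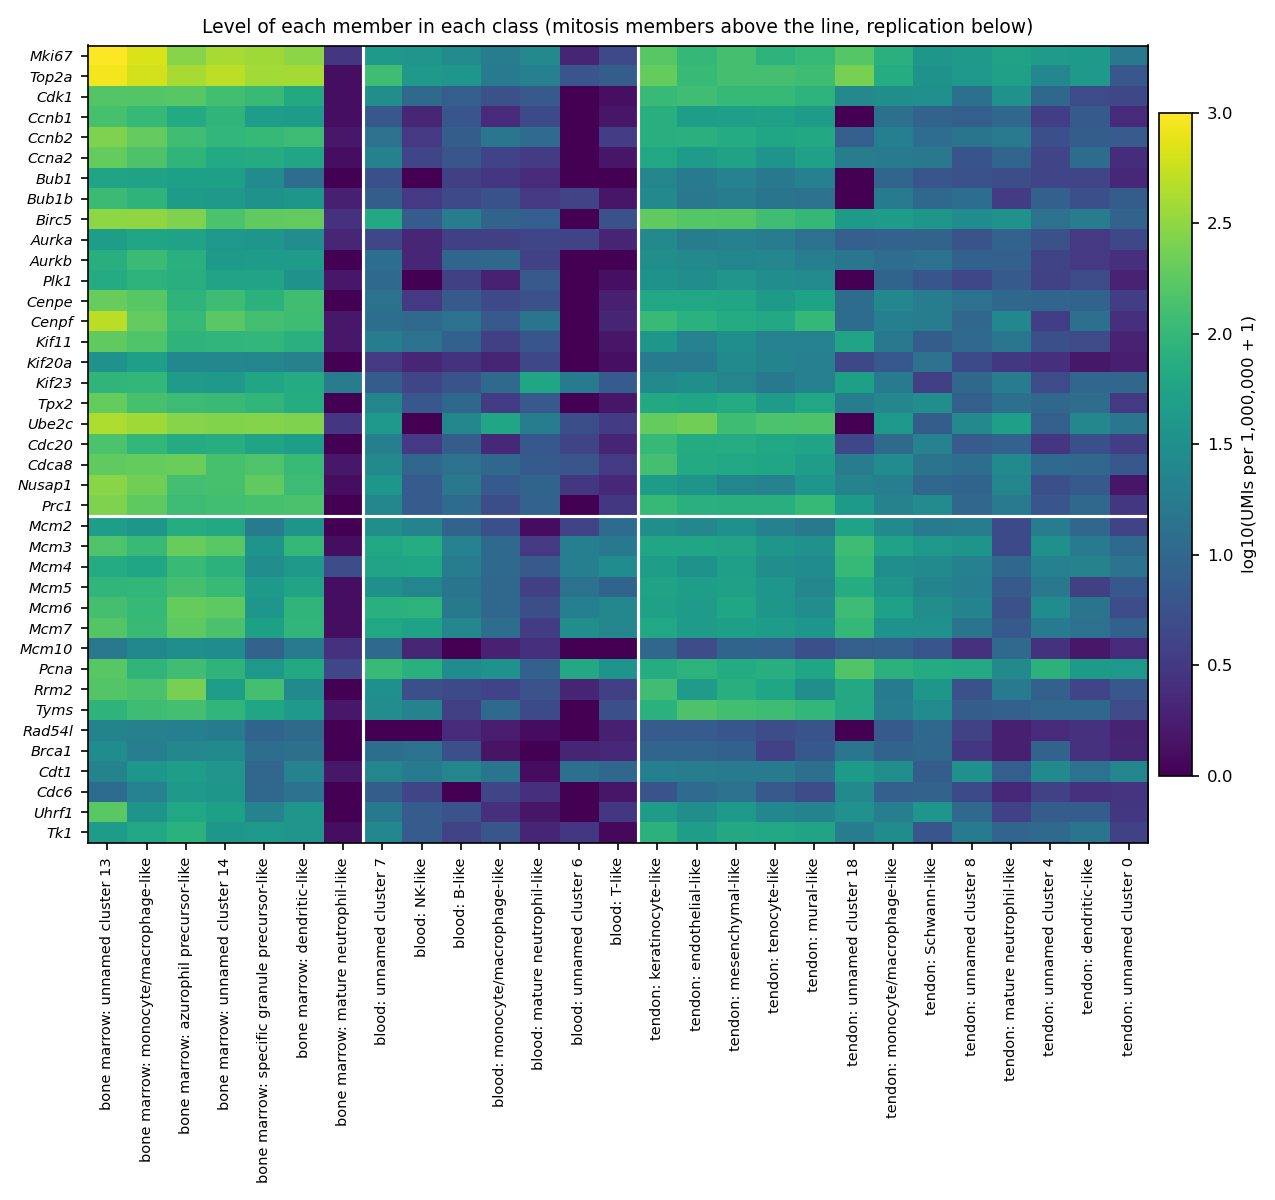
Level of each member (rows) in each class of at least 50 cells (columns, by library) as log10(CPM + 1), with mitosis members above the white line and replication members below it. Kif23 keeps a level of 17.6 CPM in marrow mature neutrophil-like cells, where most other members are near 0.

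Among the replication members the 6 subunits of the MCM helicase, Mcm2 to Mcm7, were each highest in azurophil precursor-like cells, from 71.7 CPM for Mcm2 to 198 CPM for Mcm3. Mcm10, which helps to activate the helicase, was lower at 30.4 CPM in the same class, and the licensing factors Cdt1 and Cdc6 reached 47.0 and 39.3 CPM there. Counts of mRNA 3' ends are not scaled by gene length, and levels of different genes are set side by side only as captured UMIs. Rrm2, the regulated subunit of ribonucleotide reductase, reached 241 CPM in azurophil precursor-like cells and had 0 of 3589228 UMIs in mature neutrophil-like cells. Cdt1 and Pcna differed least between the libraries. Cdt1 stood at 21.9 CPM in marrow, 11.2 CPM in blood and 20.4 CPM in tendon, and Pcna at 64.2, 35.0 and 70.1 CPM. Pcna made up 1.71% of the member UMIs in the marrow and 10.3% in the blood. Uhrf1, which carries DNA methylation over to the new strand, stood out in the marrow cluster with B-cell precursor genes at 171 CPM, against 62.4 CPM in the next class. The repair genes Brca1 and Rad54l were low throughout, with peaks of 27.4 and 21.1 CPM in that cluster, close to 25.6 and 19.4 CPM in their next classes.

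Among the mitosis members Mki67, the Ki-67 protein that coats mitotic chromosomes, reached 1035 CPM and Top2a 881 CPM in the same marrow cluster. Cenpf, a kinetochore protein, was at 487 CPM there and next highest in marrow monocyte/macrophage-like cells at 191 CPM. Birc5 (survivin), Aurkb and Cdca8 encode subunits of the chromosomal passenger complex. Their highest levels were 321 CPM and 109 CPM in marrow monocyte/macrophage-like cells for Birc5 and Aurkb, and 211 CPM in azurophil precursor-like cells for Cdca8. Cdc20, the activator of the anaphase-promoting complex, was the mitosis member whose second-highest class was outside the marrow, with 141 CPM in the marrow cluster with B-cell precursor genes and 102 CPM in tendon keratinocyte-like cells.

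In the marrow neutrophil lineage every member was higher in precursor-like cells. The 1009 precursor-like cells held 117117 member UMIs, or 3637 CPM (3616 to 3658), and the 286 mature neutrophil-like cells held 147, or 41.0 CPM, a log2 ratio of 6.47 (6.24 to 6.72). All 39 members were at least 2-fold higher in the precursors, where 47.9% of the 9599 genes compared were, and none was at least 2-fold lower, against 12.4% of genes. The members' median log2 ratio was 6.95, with members at 0 set at the limit of 3 counts, against 0.91 over all genes compared. Top2a had 385 CPM in precursors and 1 UMI, or 0.279 CPM, in mature cells, a log2 ratio of 10.43 (7.96 to 15.74). Nusap1, a spindle microtubule protein, had 168 CPM and 1 UMI (log2 ratio 9.23, 6.76 to 14.54), and Cdk1 had 124 CPM and 1 UMI (8.80, 6.32 to 14.11). Such low counts leave wide intervals. Rrm2 had 160 CPM and no UMI, a log2 ratio of at least 7.58 against the limit of 3 counts, and Prc1, which bundles the midzone microtubules, 127 CPM and no UMI, at least 7.25. The smallest differences belonged to Kif23 with 53.4 and 17.6 CPM (1.61, 1.24 to 1.99), Mcm10 with 14.1 and 1.67 CPM (3.08) and Mcm4 with 50.1 and 4.18 CPM (3.58). Without Kif23 the log2 ratio of the sum was 7.26.

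Other cell cycle genes, taken from lists of 35 replication, 63 mitosis, 28 regulator and 11 inhibitor genes, mostly went the same way. In the precursors 34 of 35 replication and 59 of 63 mitosis genes were at least 2-fold higher. The highest of them were Dut, which removes dUTP, at 205 CPM against 1 UMI (log2 ratio 9.53, 7.05 to 14.83), Cks1b, a Cdk subunit, at 131 CPM against 1 UMI (8.88, 6.40 to 14.18), and Spc24 of the kinetochore at 102 CPM against 1 UMI (8.52, 6.04 to 13.83). The inhibitors went both ways. Among those lower in precursors, Btg1 stood at 68.9 CPM in precursors and 561 CPM in mature cells, Gadd45a at 26.8 and 156 CPM and Btg2 at 43.0 and 210 CPM, and of the 8 inhibitors compared 4 were at least 2-fold lower in precursors and 3 at least 2-fold higher. Over all genes compared 47.9% were at least 2-fold higher in precursors and 12.4% at least 2-fold lower.

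When the marrow neutrophil-lineage cells were ordered by the log2 ratio of mature to granule marker UMIs and cut into 10 groups of 128 or 129 cells, the members were high in most groups and low in the last ones. Their sum was 4927, 5001, 4431, 4297, 3287, 2531 and 1962 CPM in groups 1 to 7, then 333 CPM (310 to 357) in group 8, and 37.3 and 43.4 CPM in the last 2 groups. Mature markers, which set the order, stood at 9670, 27938 and 51777 CPM in groups 7, 8 and 9. The mitosis and replication members peaked only partly together. All 23 mitosis members were highest in group 1 (14 members) or group 2 (9 members), the groups richest in specific granule mRNA, whereas 5 of the 16 replication members were highest in these groups and 7 in group 5, where azurophil mRNA was highest at 16797 CPM. Azurophil mRNA was at 1629 CPM in group 1, so that the place in this order is not the same as the granule stage. In groups 1, 5 and 8 the level of Mcm6 was 48.2, 113 and 8.09 CPM, while that of Top2a was 594, 283 and 40.9 CPM. The log2 ratio of replication to mitosis UMIs was -2.42 in group 1, -0.82 in group 7 and -1.82 in group 8. Summed replication members varied little over groups 2 to 5, from 932 to 1005 CPM, with the highest level in group 3.

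**Figure D3:**
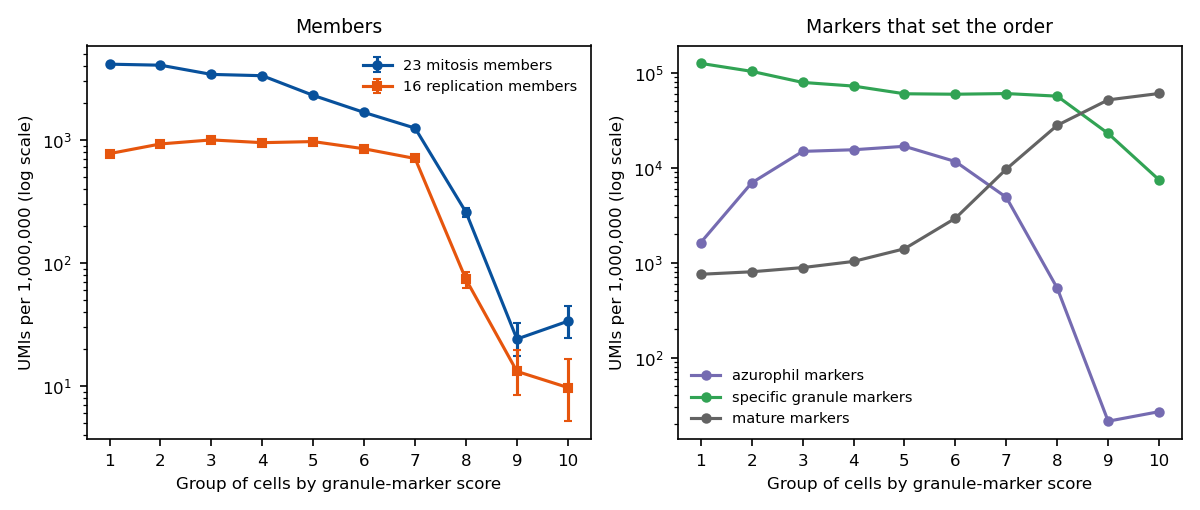
CPM (log axis) of the mitosis and replication members (left, bars are 95% counting intervals) and of the granule and maturity markers that set the order (right) in 10 groups of bone marrow neutrophil-lineage cells. Members hold 1962 CPM in sum in group 7 and are at 37.3 and 43.4 CPM in groups 9 and 10.

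The cell cycle kinases and their brakes differed along the same order. Cdk4, a G1 kinase, had 18.6 and 122 CPM in groups 1 and 6 and 0 in groups 9 and 10, and Cdk6 had 17.0, 92.4 and 2.19 CPM in groups 1, 6 and 9. Their partner Ccnd3 (cyclin D3) had 310, 221 and 376 CPM in groups 1, 5 and 10. Of the Cdk inhibitors, Cdkn1b had 48.4 CPM in group 5 and 184 CPM in group 10, and Cdkn2d 145 CPM in group 6 and 285 CPM in group 10, but Cdkn2d was also at 258 CPM in group 1, where the mitosis members were near their highest. Cdkn2c ran the other way, with 54.7 CPM in group 1 and 0 in groups 9 and 10.

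The clusters of specific granule precursor-like cells differed widely among themselves. Clusters 0 and 7 stood at 6528 and 5784 CPM, clusters 5 and 9 at 876 and 633 CPM, and clusters 8 and 1 at 36.1 and 29.2 CPM, as low as mature neutrophil-like cells. In cluster 5, 8 of the 151 cells held 77.8% of the member UMIs, and its log2 ratio of replication to mitosis was -4.78, against -2.92 to -1.25 in the other clusters of this class. Cluster 1 had 5 markers of specific granules among its leading genes and nearly as many of maturity, and counting it as mature gave a log2 ratio of precursors to mature cells of 6.86.

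Kif23 behaved unlike the other members in neutrophils. It encodes a kinesin of the central spindle that is needed for the last step of cell division, and it does not overlap another annotated gene. In marrow mature neutrophil-like cells it had 63 UMIs (17.6 CPM), or 42.9% of all member UMIs. In blood mature neutrophil-like cells it had 212 UMIs (56.7 CPM), and in the tendon 43 UMIs (17.6 CPM). In the larger blood cluster of these cells, cluster 1, Kif23 was found in 119 of 335 cells with 175 UMIs (63.2 CPM), while Top2a had 2 UMIs and Ube2c none. The Kif23 level of that cluster was close to the 74.8 CPM of marrow cluster 7, in which Top2a had 2979 UMIs (633 CPM). In neutrophil-lineage clusters of the marrow Kif23 was lowest in the specific granule precursor-like clusters 1 and 8, with 6.74 and 3.57 CPM. Both also had maturity markers among their leading genes, but so did the mature marrow cluster 4 have markers of specific granules.

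**Figure D4:**
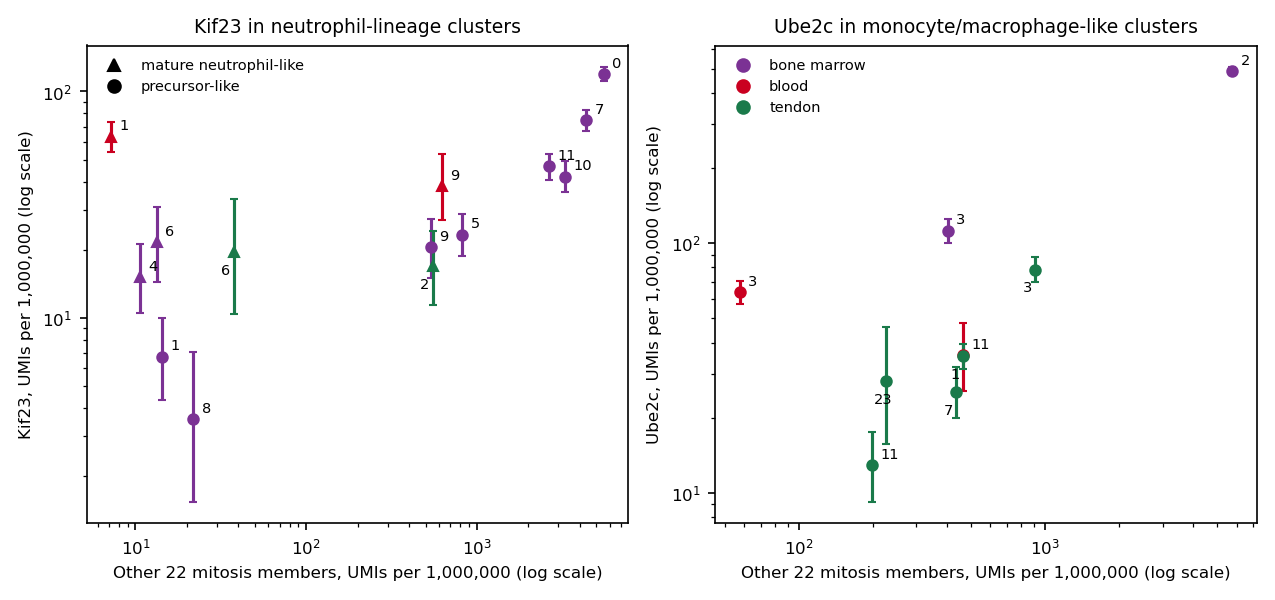
Left, CPM of Kif23 against the summed CPM of the other 22 mitosis members in clusters of neutrophil-lineage cells (triangles, mature; circles, precursor), and right, the same for Ube2c in monocyte/macrophage-like clusters, both on log axes, with cluster numbers, 95% counting intervals for the gene on the vertical axis and the library by colour (purple, bone marrow; red, blood; green, tendon). Blood cluster 1 has 63.2 CPM of Kif23 with almost no other mitosis UMIs, and blood cluster 3 has 63.5 CPM of Ube2c at the lowest level of the other members among the monocyte/macrophage-like clusters.

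Between sites, the mature neutrophil-like cells held 543 CPM of members in the tendon (514 to 573) and 263 CPM in the blood (247 to 280), a log2 ratio of 1.04 (0.92 to 1.16). Their median depth was 3503 UMIs per cell in the tendon and 8534.5 in the blood. The blood cells of this class are those that stayed in the mononucleated fraction. Few cells carried these UMIs. In the tendon 14 of 568 cells had at least 1% of their UMIs from granule markers of neutrophil precursors, and these 14 cells held 83.9% of the member UMIs of the class, at 4340 CPM against 97.5 CPM in the other 554 cells. In the blood 27 of 390 cells were of this kind and held 74.5% of the member UMIs, at 1263 CPM against 79.5 CPM. At least 20 member UMIs were found in 7 of the 14 tendon cells and in 3 of the 27 blood cells, and in none of the other cells of either class. These counts were not thinned. The median depth was 16736.5 UMIs in the 14 tendon cells and 3474 in the other 554. It was 19924 UMIs in the 27 blood cells and 8327 in the rest, so a count of 20 was harder to reach in the other cells. In the marrow class 81 of 286 cells passed the same 1% and stood at 35.3 CPM, against 44.2 CPM in the rest. In the blood cells under 1%, Kif23 made up 184 of 251 member UMIs (73.3%), and in the tendon cells under 1% it made up 24 of 213 (11.3%). Pcna was at 21.5 CPM in those tendon cells and 4.75 CPM in those blood cells.

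Of the 39 members 15 had enough UMIs to be compared between tendon and blood mature neutrophil-like cells (at least 50 over both classes). Their median log2 ratio was 1.42, against 0.04 over all genes. Of these 11 were at least 2-fold higher in the tendon, where 16.7% of 5244 genes were, and 1, Kif23, was at least 2-fold lower (log2 ratio -1.69, -2.19 to -1.21), where 10.7% of genes were. Cdk1 had the highest ratio, with 32.0 CPM in the tendon and 5.89 CPM in the blood (2.44, 1.74 to 3.20). Of its tendon UMIs 71 lay in the 14 cells with at least 1% granule UMIs and 7 in the other 554. All 22 of its blood UMIs lay in the 27 such cells. Top2a likewise had 121 tendon UMIs in the 14 cells and 5 in the rest, whereas Pcna had 13 and 47 and Kif23 19 and 24. Most of these ratios thus describe few cells rather than the class. Without the cells of at least 1% granule UMIs the log2 ratio of the summed members was 0.29, and without Kif23 as well it was 2.03. It was -1.49 with a stricter filter on cells and -1.65 when cell cycle genes were kept for clustering, so that its direction depended on which cells entered the class. Of the other cell cycle genes the Cdk inhibitor Cdkn1a (p21) differed most, with 768 UMIs (315 CPM) in the tendon and 3 UMIs (0.803 CPM) in the blood, a log2 ratio of 8.62 (7.06 to 10.90). Ckap2l of the spindle had 24.6 and 3.48 CPM and Trp53 had 20.5 and 2.94 CPM. The lowest ratios were those of Ccnd3 with 129 and 386 CPM, Hjurp, a centromere histone chaperone, with 40.6 and 117 CPM, and the S phase transcription factor E2f2 with 15.6 and 44.1 CPM.

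Monocyte/macrophage-like cells were found at all 3 sites, and in summed members they stood at 5525 CPM in marrow, 986 CPM in tendon and 313 CPM in blood. Blood is the common denominator of both comparisons, so their ratios share its counting error. The marrow to blood log2 ratio was 4.14 (4.08 to 4.20), with 39 of 39 members at least 2-fold higher in the marrow, where 10.2% of 9279 genes were, and none at least 2-fold lower, against 5.68% of genes. The members' median log2 ratio was 4.68, against 0.15 over all genes. Plk1, a kinase of mitotic entry and spindle assembly, led with 84.9 CPM in marrow and 0.909 CPM in blood (6.55, 5.42 to 7.996), followed by Cdc20 with 95.5 and 1.21 CPM (6.30) and cyclin Ccnb1 with 101 and 1.36 CPM (6.22). Pcna with 89.7 and 33.2 CPM (1.44, 1.22 to 1.66) and Cdt1 with 37.0 and 13.5 CPM (1.46) differed least. Summed mitosis members had a log2 ratio of 4.56 (4.48 to 4.64) and replication members of 3.10 (2.99 to 3.20).

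The tendon to blood log2 ratio in these cells was 1.65 (1.59 to 1.72). Of the 39 members 34 were at least 2-fold higher in the tendon, where 20.7% of 10251 genes were, and none was at least 2-fold lower, against 10.3% of genes, with a median log2 ratio of 2.31 against 0.16 over all genes. Uhrf1 had 18.4 CPM in tendon and 1.51 CPM in blood (3.60, 2.70 to 4.67), Tpx2, which nucleates spindle microtubules, 23.3 and 2.42 CPM (3.27), and Brca1 8.11 CPM and 3 UMIs (4.16, 2.58 to 6.45). The 5 members under 2-fold were Tyms (0.84), Kif23 (0.67), Ccnb2 (0.39), Aurkb (0.24, -0.18 to 0.68) and Ube2c. Ube2c, the ubiquitin-conjugating enzyme of the anaphase-promoting complex, was the exception in direction, with 38.6 CPM in tendon and 58.5 CPM in blood (-0.60, -0.78 to -0.42). It made up 18.7% of the member UMIs of blood monocyte/macrophage-like cells, against 3.91% in the tendon and 6.73% in the marrow. In blood cluster 3, which held 289 of these 327 cells, Ube2c was found in 161 cells with 344 UMIs (63.5 CPM) while Top2a had 5 UMIs (0.923 CPM). In marrow cluster 3, monocyte/macrophage-like cells led by Ccr2, Ube2c was at 112 CPM in 109 of 159 cells and Top2a at 18.3 CPM, whereas the other marrow cluster of the class, cluster 2, had 490 CPM of Ube2c and 905 CPM of Top2a.

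**Figure D5:**
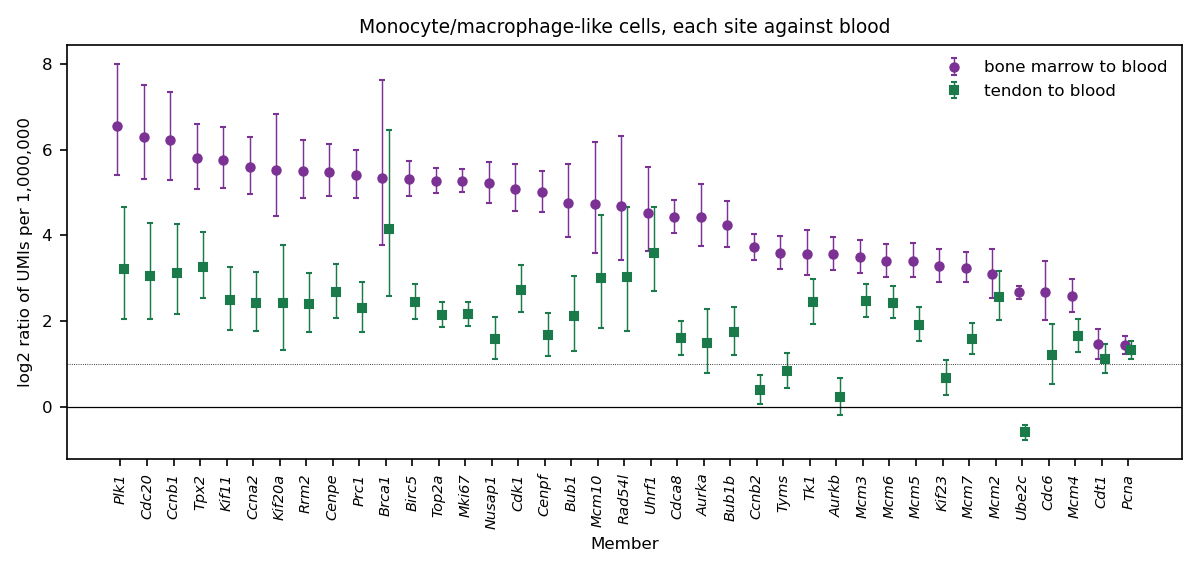
Log2 ratio of CPM in monocyte/macrophage-like cells of the bone marrow (circles) and of the tendon (squares) to those of the blood for each of the 39 members, with 95% counting intervals and a dotted line at 2-fold. All marrow ratios exceed 1, and Ube2c at -0.60 is the only tendon ratio below 0.

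Different clusters made up the class at each site. In the marrow, cluster 2 with 169 cells stood at 7734 CPM and cluster 3 with 159 cells at 657 CPM. Histone genes such as Hist1h2ae and Hist1h3c and the member Mki67 were among the first leading genes of cluster 2, next to Ly6c2. In the tendon, cells led by Acp5 and Ctsk, genes of bone-resorbing macrophages, stood highest at 1940 CPM, followed by cells led by Ccl8, Cd163, Mrc1 and Folr2 at 909 CPM, cells led by Il10 and Tnf at 732 CPM, and cells led by interferon-stimulated genes such as Rsad2 and Ifit1 at 356 CPM. In these clusters, in this order, the 5% of cells with most member UMIs held 48.2%, 62.9%, 69.1% and 52.7% of them. A smaller cluster of 23 cells led by Cd209f, Cd209d and Cd209g stood at 445 CPM, and 1 cell held 51.7% of its member UMIs. In the tendon 67 of the 1343 cells, the 5% with most member UMIs, held 63.9% of the class's member UMIs, in the marrow 16 of 328 held 22.8%, and in the blood 16 of 327 held 47.6%. In the blood, the denominator of both ratios, cluster 3 with 289 cells stood at 210.0 CPM and cluster 11, with 38 cells led by Alox15, Retnla and Cd5l, at 788 CPM. In cluster 11, 2 cells held 78.2% of the 931 member UMIs, and 1 cell held 581 of them. Replication members were nearly as abundant as mitosis members in the tendon cells (log2 ratio of replication to mitosis -0.27) and far less abundant in the marrow cells (-2.07). The tendon to blood log2 ratio ran from 0.91 to 2.35 over the alternative ways of filtering, clustering and naming, and it was 1.22 when 4 unnamed clusters with more monocyte/macrophage markers than of any other type were counted in. The marrow to blood ratio was 2.31 when the 3 libraries were clustered together and 3.21 when each cell was named alone.

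Most of the other replication and mitosis genes were also higher in these cells of the tendon and marrow than of the blood. In the tendon 25 of 35 replication genes and 43 of 58 compared mitosis genes were at least 2-fold higher than in blood, led by Pbk, a mitotic kinase, with 11.5 CPM and 2 UMIs (log2 ratio 5.25, 3.37 to 8.30), Kif2c, a microtubule-depolymerising kinesin, with 13.6 and 0.606 CPM (4.49) and Orc1 with 2.67 CPM and 1 UMI (4.14, 1.59 to 9.47). The lowest were E2f2 with 3.00 and 28.5 CPM (-3.25), Dna2, a nuclease of replication and repair, with 6.26 and 51.0 CPM (-3.03) and Ccnd3 with 31.04 and 221 CPM (-2.83). Of 27 regulators compared 13 were at least 2-fold higher in the tendon and 2 at least 2-fold lower, and of 9 inhibitors 1 was higher and 2 were lower by that measure. Over all genes compared 20.7% were at least 2-fold higher in the tendon and 10.3% at least 2-fold lower. In the marrow 61 of 63 mitosis genes were at least 2-fold higher than in blood, where 10.2% of all genes compared were. Pbk (7.24, 5.38 to 10.30), Ttk (7.11, 4.61 to 12.42) and Hmmr (6.54) were highest. Cyclins Ccnd1 with 0.861 CPM in marrow and 43.3 CPM in blood (-5.65) and Ccnd2 with 0.861 and 6.36 CPM (-2.89) were lowest, next to Btg2 with 74.2 and 155 CPM (-1.06). Cdkn1a was at 461 CPM in the tendon cells, 58.5 CPM in the blood cells and 45.1 CPM in the marrow cells.

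Within the tendon, mesenchymal-like cells exceeded monocyte/macrophage-like cells mainly in mitosis members. The summed members stood at 2140 CPM (2120 to 2159) and 986 CPM (972 to 1000), a log2 ratio of 1.12 (1.09 to 1.14). Of the 23 mitosis members 17 were at least 2-fold higher in mesenchymal-like cells, and of the 16 replication members 4 were, in all 21 of 39 where 26.1% of 11973 genes were. The 4 of 16 replication members are close to that share of all genes, so by this count only the mitosis members exceeded it. None was at least 2-fold lower, against 19.8% of genes. The median log2 ratio was 1.13 over all members, 1.56 over mitosis members, 0.40 over replication members and 0.16 over all genes. The 4 replication members were the nucleotide enzymes Tyms with 123 and 17.1 CPM (2.84, 2.67 to 3.01), Rrm2 with 77.2 and 15.9 CPM (2.28) and Tk1 with 63.9 and 28.0 CPM (1.19), together with Uhrf1 with 40.2 and 18.4 CPM (1.13). The MCM helicase subunits all stayed under 2-fold, from Mcm3 with 55.8 and 52.7 CPM (0.08, -0.04 to 0.20) to Mcm4 with 48.3 and 29.9 CPM (0.69). Of the 16 replication members 12 had a log2 ratio above 0. Among the others, Cdt1 with 15.9 and 29.4 CPM (-0.88) and Pcna with 69.5 and 82.7 CPM (-0.25, -0.35 to -0.15) were higher in the monocyte/macrophage-like cells. Among the mitosis members Cdc20 with 71.1 and 10.0 CPM (2.83), Kif20a with 26.3 and 5.66 CPM (2.22) and Plk1 with 35.8 and 8.39 CPM (2.09) differed most. The log2 ratio of summed members was 1.60 with the unnamed monocyte/macrophage clusters counted in and 0.76 when cell cycle genes were kept for clustering.

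Of the other lists in this comparison, 18 of 35 replication and 40 of 63 mitosis genes were at least 2-fold higher in mesenchymal-like cells. Of 27 regulators compared 9 were at least 2-fold higher and 2 at least 2-fold lower, and of 11 inhibitors 3 were higher and 2 lower. Over all genes compared 26.1% were at least 2-fold higher and 19.8% at least 2-fold lower. Among the genes with the widest differences, Ccnd2 had 121 CPM in mesenchymal-like and 4.85 CPM in monocyte/macrophage-like cells (4.65). Cdkn2a and Cdkn2b, inhibitors of Cdk4 and Cdk6, had 3.30 and 0.218 CPM (3.92) and 3.75 and 0.272 CPM (3.79). Both rested on few UMIs in the monocyte/macrophage-like cells, so their ratios are uncertain. Cdk6 had 6.38 and 57.7 CPM (-3.18), the retinoblastoma gene Rb1 5.65 and 44.0 CPM (-2.96), and Cdkn1a 82.4 and 461 CPM (-2.48). Within the mesenchymal-like class, cells led by Cxcl5, Crabp1 and Tnc stood at 2710 CPM, cells led by Aspn, Cilp and Postn at 1164 CPM and cells led by Sfrp4 and Gdf10 at 875 CPM. Endothelial-like cells split in the same way, with 2400 CPM in cells led by Plvap and Selp, 1662 CPM in 33 cells with the lymphatic genes Prox1 and Lyve1, and 230 CPM in 63 cells led by Rgs5 and Gpihbp1. Of the 33 cells, 2 held 71.8% of the member UMIs. The 63 cells had a log2 ratio of replication to mitosis of 2.64, against -1.25 and -1.28 in the other 2 clusters.

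T-like and NK-like cells of the blood held more replication than mitosis UMIs, unlike most other named classes. The log2 ratio of replication to mitosis was 2.06 in T-like cells and 1.51 in NK-like cells, against -0.61 in blood monocyte/macrophage-like cells. In the latter 1 cell held 581 of the 2069 member UMIs. Other blood cells shared the trait. The ratio was 2.06 in the 116 cells of unnamed cluster 6, which had most markers from monocyte/macrophages, and 2.15 in 34 basophil/mast-like cells. Of the 138 NK-like cells 7 held 62.8% of the member UMIs, and of the 666 T-like cells 33 held 29.2%. Pcna made up 17.4% of the member UMIs of T-like cells, followed by Mcm4 with 13.6% and Mcm6 with 11.3%, while in NK-like cells Mcm6 led with 13.6%. The same order of the groups was present in 21 NK-like cells of the marrow, with 1259 CPM and a log2 ratio of 2.56. B-like cells of the blood fell into 336 cells at 192 CPM (172 to 214) with a log2 ratio of 2.42, and 35 cells at 1095 CPM (1007 to 1189) with a log2 ratio of -2.27, in which 2 cells held 84.6% of the member UMIs. T-like cells with Foxp3, Ctla4 and Ikzf2 among their leading genes, 55 in number, stood at 379 CPM (319 to 446), but 3 of them held 49.0% of the 143 member UMIs. The 294 cells led by Lef1, Tcf7 and Cd4 stood at 156 CPM (140 to 173) and the 272 cells led by Cd8a and Cd8b1 at 229 CPM (211 to 247). Of the 294 cells 15 held 22.4% of the member UMIs. Of the 272 cells 14 held 29.9%, and 1 cell held 110 of the 622 member UMIs.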

How the data were processed

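Single cells of bone marrow, blood and tendon injury site were sequenced with a 10x 3' kit, 1 library per tissue. The deposited counts are UMI counts per gene and cell, which the authors made with Cell Ranger (matrix header 5.0.1, build mm10); their values were not normalised. Cells with at least 200 genes and at most 20% mitochondrial UMIs were kept (8739 after doublets). Cells with the highest Scrublet scores (0.8% per 1000 cells) were removed as doublets: 27, 38 and 198 in marrow, blood and tendon, since Scrublet's own threshold marked 1, 32 and 6. Total counts were 48444503, 21860254 and 84625100 UMIs. Each library was clustered with scanpy 1.11.5 and leidenalg 0.10.2 (2000 variable genes without the listed cell cycle genes, clustered histone genes and mitochondrial genes, 30 components, 15 neighbours, resolution 1). A cluster was named where at least 3 markers of a type were among its 200 leading genes and its 10 first genes did not hold more markers of another type. It stayed unnamed on a tie, with less than 2-fold the markers of the next unrelated type, or at low depth without its markers among the 10 first. The neutrophil lists counted as related to each other, as did the B lists and the mesenchymal and tenocyte lists. UMIs were summed per class, genes with at least 50 UMIs over both classes were compared, and a difference was counted from 2-fold. Intervals are exact Poisson or binomial (scipy 1.17.1). A count of 0 was set at 3 counts. Ratio and thinning code was tested on simulated data. Of other cell cycle genes, the 3 highest and 3 lowest per comparison, and regulators and inhibitors where a class is described, are named. The members and lists were chosen with earlier results of these data known, and the naming of clusters was settled after the clusters were seen. No test across samples was possible with 1 library per tissue.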

Additional observations from a re-analysis of the deposited data

How the results depend on the processing

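Of 87 alternatives, 32 moved a value by less than its counting interval, 53 moved it further and 2 reversed it. The cause was not tested. No paired analysis was possible because each tissue had 1 library. Alternatives that leave out genes, barcodes or cells by granule UMIs, or rename clusters, were chosen after seeing the data. The precursor to mature log2 ratio (6.47) was 6.12 without the 20 most abundant genes in the total, 6.04 as a mean of per-cell values, 7.26 without Kif23 and 6.86 with marrow cluster 1 counted as mature. For the tendon to blood and marrow to blood monocyte/macrophage ratios, values follow in a fixed order. It starts with no filter on cells, stricter filter (500 genes, 10% mitochondrial UMIs), no doublets removed and cell cycle genes kept for clustering. It goes on with libraries clustered together, resolution 2 and each cell named alone. The tendon to blood monocyte/macrophage ratio (1.65) was 1.53, 0.91, 1.41, 2.35, 1.22, 1.32 and 0.99, then 1.54 as a mean of per-cell values, 1.22 with the unnamed clusters named and 1.89 without Ube2c. The marrow to blood ratio (4.14) was 3.99, 3.73, 3.88, 4.47, 2.31, 3.85 and 3.21, then 4.05 without the 20 genes, 3.99 as a per-cell mean and 4.34 without Ube2c. The mesenchymal to monocyte/macrophage ratio (1.12) was 1.03 with no filter, 1.45 with the stricter filter, 0.76 with cell cycle genes kept, 1.54 with libraries together, 1.32 at resolution 2, 1.69 with each cell named alone, 0.997 without the 20 genes and 1.60 with the unnamed clusters named. The tendon to blood neutrophil ratio (1.04) turned to -1.49 with the stricter filter and -1.65 with cell cycle genes kept, and was 0.91 with no doublets removed, 0.22 with libraries together, 1.55 with each cell named alone, 0.76 without the 20 genes, 0.61 as a per-cell mean, 0.29 without cells of at least 1% granule UMIs, 1.35 without Kif23 and 2.03 without both. The replication to mitosis ratio in tendon monocyte/macrophage-like cells (-0.27) was -0.33 with the stricter filter, -0.21 with no doublets removed, -0.52 with cell cycle genes kept, -0.062 with libraries together, -0.036 with each cell named alone and -0.13 with the unnamed clusters named. The share of cells with mitosis UMIs was 37.6%, 1.75% and 12.5% in marrow, blood and tendon when thinned to 2000 UMIs and 55.1%, 13.1% and 30.2% unthinned, and 0.664% in blood with the stricter filter. Blood held 7450 member UMIs in all, and 24 of 39 members had too few UMIs for the tendon to blood neutrophil comparison.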
